A study of Mus musculus with 8 samples.

Results

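Genes that mark retinal astrocytes and reactive glia were followed in bulk RNA-seq of whole mouse retina after deletion of *Mettl3*, which encodes the methyltransferase that writes N6-methyladenosine (m6A) on RNA. The 10 genes, taken by name from the 54532 genes of the count table, were *Gfap*, *Pax2*, *Pdgfra*, *S100b*, *Aldh1l1*, *Gja1*, *Vim*, *Nes*, *Stat3* and *Edn2*. The comparison asked how their RNA levels differed between *Mettl3*-CKO and control retinas, with all samples and without control replicate 1, which stood highest for most of them. The *Mettl3*-CKO group (n = 4) carried *Six3-Cre*, a Cre transgene that acts in retinal progenitor cells (RPCs) from early eye development, and floxed *Mettl3* on both chromosomes. The control group (n = 4) is labelled as control, without a genotype of its own. The labels give the age of all 8 samples as postnatal day 7, whereas the study's methods give postnatal day 6. They do not say whether a sample was 1 animal or several, so the p-values measure the spread between these samples, which may in part be technical.

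A pair of glial populations of the retina carry these genes. Astrocytes are not made by RPCs: they enter the retina from the optic nerve head, spread over its inner surface and form the template along which blood vessels grow. Their precursors carry the transcription factor PAX2 and the receptor PDGFRA, which responds to PDGFA released by retinal ganglion cells, and they build up the filament protein GFAP as they mature. Müller glia, which do come from RPCs, hold vimentin throughout life and take up GFAP when the retina is injured. In that response, called reactive gliosis, cytokines such as LIF and CNTF signal through gp130 to STAT3, and stressed photoreceptors release endothelin 2, the product of *Edn2*. In whole retina, fewer cells of a type and less RNA per cell cannot be told apart.

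Total counts ranged from 16227095 to 20281517 per sample, so that 3 counts, taken as the floor of detection, equalled 0.148 to 0.185 CPM, a read count scaled to its library's total. Levels are given below in CPM after edgeR's TMM scaling, which adjusts library sizes with factors of 0.969 to 1.01. The test was the quasi-likelihood test of edgeR, adjusted by Benjamini-Hochberg over the 17998 genes that passed its filter on low counts, and a gene was called at an adjusted p-value under 0.05. *Mettl3* itself was at 21.1, 29.6, 21.3 and 24.3 CPM in *Mettl3*-CKO and 33.8, 32.5, 29.4 and 29.3 CPM in control retinas (replicates 1 to 4 of each). Its log2 fold change was -0.38 ± 0.12 (SE), with an adjusted p of 0.0602 (edgeR), and replicate 2 of the *Mettl3*-CKO group lay within the control range. These counts cover the whole gene, including exons outside the deleted part, and the opposite-strand gene *Tox4* shares 18.4% of its exon bases.

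Of the 10 genes, 9 passed the filter, and *Edn2* did not. The expression of *Gfap*, *Pdgfra* and *Nes* was lower in *Mettl3*-CKO retinas, and 0 of the 9 genes were called higher by edgeR, DESeq2 or limma. By comparison, 4.05% of all genes tested were called lower and 6.49% were called higher by edgeR. At an unadjusted p under 0.05, 7 of the 9 genes were lower and 0 higher, against 11.1% lower and 13.5% higher of all genes tested. DESeq2 called 4 of the 9 genes lower, adding *Vim*, against 6.20% lower and 8.54% higher of the 17289 genes to which it gave an adjusted p. All 9 fold changes were below 0 on the log2 scale, with a median of -0.47, whereas 51.8% of all genes tested were below 0 and their median was -0.012. The 4 *Mettl3*-CKO samples lay below all 4 controls for 2 of the 9 genes, *Gfap* and *Pdgfra*, against 7.58% of all genes tested. Control replicate 1 was the highest of the 8 samples for 8 of the 9 genes, the exception being *Stat3*. Without it, 4 of the 9 genes were called lower (*Gfap*, *Pdgfra*, *Nes* and *Stat3*) and 0 were called higher, against 7.07% and 10.3% of the 18235 genes then tested, and the median was -0.33.

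**Figure D1:**
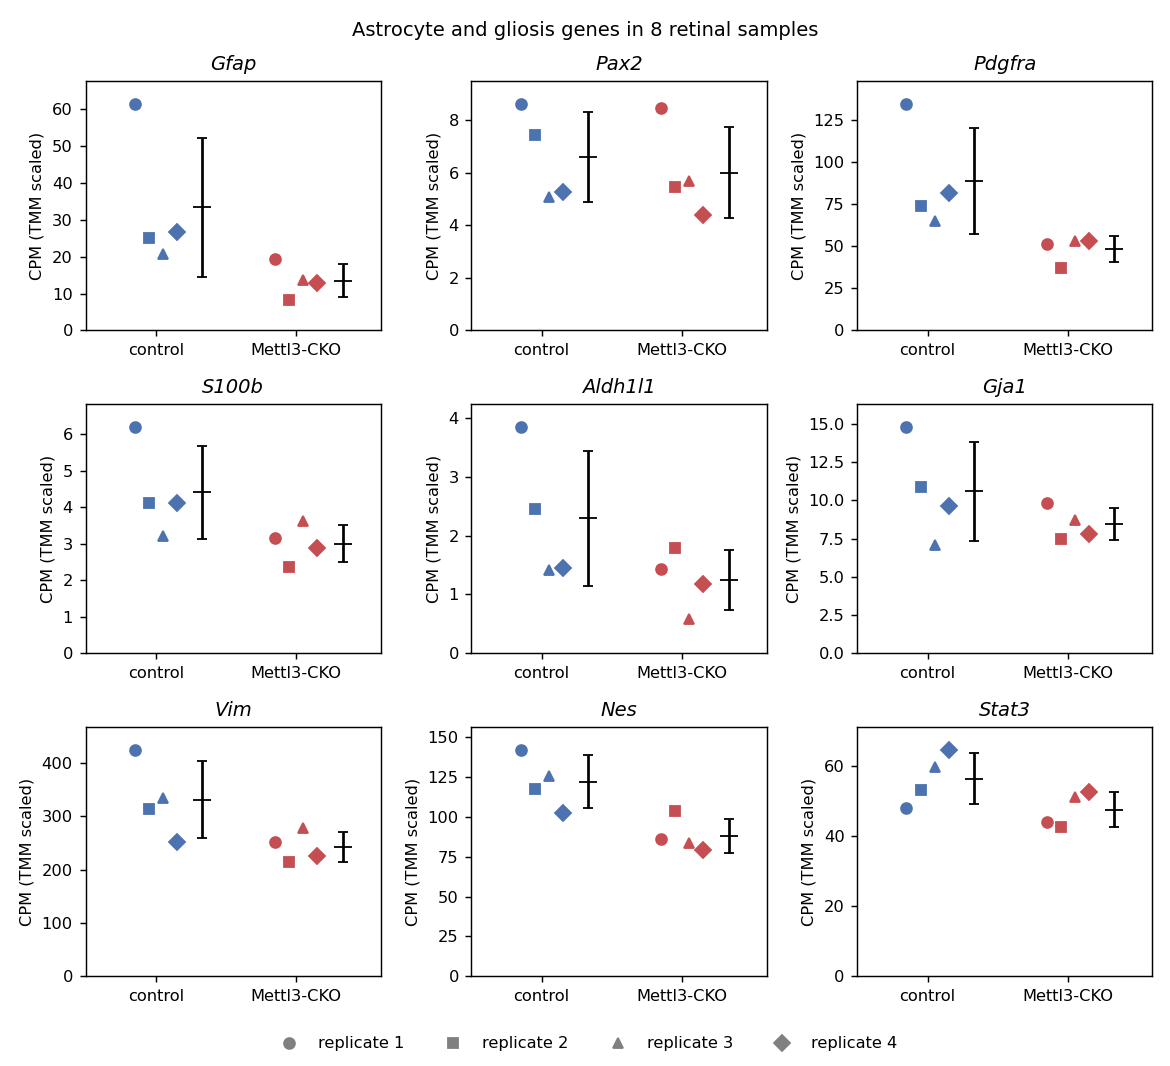
Level of each of the 9 tested genes (y axes, CPM after TMM scaling, from 0) in the 4 control samples (blue) and the 4 *Mettl3*-CKO samples (red), with marker shapes for the replicate number and black bars for the mean ± SD. The groups do not overlap for *Gfap* and *Pdgfra*, and control replicate 1 is the highest point in every panel but that of *Stat3*.

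Per length, these genes spanned a wide range of levels. In the controls, *Vim* was highest at 69.3 ± 13.7 FPKM (CPM without TMM scaling per kilobase of gene length, SD, n = 4), followed by *Nes* at 18.9 ± 2.24 FPKM. *Pdgfra* at 8.77 ± 2.92, *Gfap* at 7.82 ± 4.24 and *Stat3* at 5.89 ± 0.844 FPKM came next, and these neighbours did not differ beyond their spread. *S100b* was at 2.94 ± 0.795 FPKM. *Pax2* at 1.21 ± 0.298 and *Gja1* at 1.02 ± 0.295 FPKM lay within each other's spread, and *Aldh1l1* was at 0.502 ± 0.241 FPKM. In *Mettl3*-CKO retinas, *Stat3* at 5.0 ± 0.532 and *Pdgfra* at 4.85 ± 0.793 FPKM lay next to each other, within their spread, and *Gfap* followed at 3.21 ± 1.09 FPKM. These spreads are between samples. The order of genes within each sample was not tested, so an overlap of spreads does not show that 2 genes had equal levels.

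*Gfap*, the intermediate filament gene most used to mark astrocytes and gliosis, lies on chr11:102887336-102900912 (GRCm38, minus strand). For replicates 1 to 4, its level was 19.3, 8.23, 13.5 and 12.9 CPM in the *Mettl3*-CKO group, compared with 61.5, 25.0, 20.6 and 26.6 CPM among controls. The highest *Mettl3*-CKO sample was therefore just under the lowest control, and control replicate 1 was well above the other controls. *Gfap* in *Mettl3*-CKO retinas was at 40.4% of the control level, a log2 fold change of -1.31 ± 0.32 (SE, 95% interval -2.0 to -0.61) with an adjusted p of 0.0230 (edgeR). With control replicate 1 left out, it was at 56.3%, a log2 fold change of -0.83 ± 0.20 with an adjusted p of 0.00953. The call was lost when *Mettl3*-CKO replicate 2, 3 or 4 was left out (adjusted p up to 0.0673, edgeR).

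*Pdgfra*, the receptor that astrocyte precursors use to follow PDGFA, lies on chr5:75152292-75198215 (plus strand). It was at 51.4, 36.8, 52.9 and 53.0 CPM in the *Mettl3*-CKO samples (replicates 1 to 4), against 134.7, 73.7, 64.7 and 81.8 CPM in the controls in the same order. All *Mettl3*-CKO samples were again under all controls, with *Mettl3*-CKO replicate 2 the lowest. The level in *Mettl3*-CKO retinas was 54.7% of the control level, a log2 fold change of -0.87 ± 0.20 (95% interval -1.31 to -0.44) with an adjusted p of 0.0173 (edgeR). When control replicate 1 was left out, it was 66.2%, a log2 fold change of -0.60 ± 0.12 with an adjusted p of 0.00407. The call was lost when *Mettl3*-CKO replicate 1 or 2 was left out (adjusted p up to 0.0646, edgeR). Antisense transcripts share 4.55% (*Gm42802*) and 1.66% (*Gm42803*) of its exon bases, and the strand setting of the counting is not given.

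*Nes* encodes nestin, a filament protein of neural progenitors and of reactive glia, and lies on chr3:87971078-87980451 (plus strand). It was at 86.1, 104, 83.6 and 79.4 CPM in *Mettl3*-CKO and 142, 117, 126 and 103 CPM in control retinas (replicates 1 to 4 of each). *Mettl3*-CKO replicate 2 reached the lowest control, so the groups overlapped slightly. The level in *Mettl3*-CKO retinas was 72.3% of the control level, a log2 fold change of -0.47 ± 0.11 (95% interval -0.72 to -0.22) with an adjusted p of 0.0220 (edgeR). Without control replicate 1, it stood at -0.39 on the log2 scale (adjusted p = 0.0155). The call was lost when *Mettl3*-CKO replicate 1, 3 or 4 or control replicate 3 was left out (adjusted p up to 0.0815, edgeR).

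**Figure D2:**
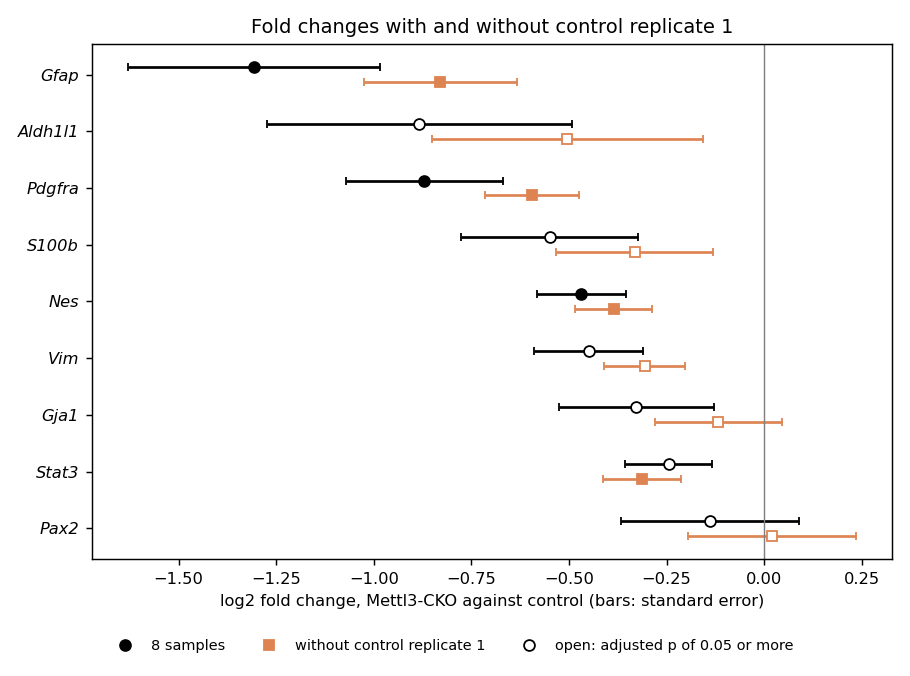
Log2 fold change of *Mettl3*-CKO against control retinas (x axis) for the 9 tested genes (rows), with all 8 samples (circles) and without control replicate 1 (squares). Bars are standard errors and filled symbols have an adjusted p under 0.05. *Gfap*, *Pdgfra* and *Nes* are filled in both, *Stat3* only without control replicate 1, and *Pax2* lies at -0.14 and 0.020.

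The stretches around the start sites of the 3 called genes are shown because *Gfap* is known as a target of STAT3 in gliosis (RefSeq, GRCm38.p6). Each runs from 130 bases before the start to 20 bases after it on the gene's own strand, and capitals mark a match to the STAT motif TTCNNNGAA, which reads the same on both strands. They cover chr11:102897181-102897330 (minus strand) for *Gfap*, chr5:75152121-75152270 (plus strand) for *Pdgfra* and chr3:87970963-87971112 (plus strand) for *Nes*.
Gfap: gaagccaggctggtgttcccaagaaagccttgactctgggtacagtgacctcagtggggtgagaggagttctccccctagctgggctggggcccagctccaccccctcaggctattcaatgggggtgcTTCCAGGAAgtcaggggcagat
Pdgfra: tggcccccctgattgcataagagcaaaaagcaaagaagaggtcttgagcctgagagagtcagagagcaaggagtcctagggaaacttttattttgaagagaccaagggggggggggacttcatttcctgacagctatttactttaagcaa
Nes: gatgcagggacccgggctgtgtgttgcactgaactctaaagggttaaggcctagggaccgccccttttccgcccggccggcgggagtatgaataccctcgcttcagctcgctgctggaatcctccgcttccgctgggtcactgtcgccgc

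The *Gfap* match, TTCCAGGAA, begins 2 bases before the RefSeq start site, which lies inside the longer gene span of the count table. The search covered windows from 250 bases before to 50 bases after each RefSeq start, of which the 10 genes have 12. Only the *Gfap* window and 1 of 3 *Pax2* windows held the motif, as did 8.3% of the 32851 promoter windows of the genome. The TATA box sequence TATAAA was found, on either strand, in the *Vim* window and in none of the other 11 windows of these genes, against 13.6% of all windows. These matches describe the letters of the windows and were not tied to binding. The motif GGACT, a common form of the m6A consensus, occurred 1.13 times per kilobase in the longest coding transcript of *Gfap*, 1.17 times in *Pdgfra* and 1.80 times in *Nes*, against a median of 1.05 over 14285 tested genes with such a transcript. It was denser in *S100b* (2.02), *Aldh1l1* (1.92) and *Edn2* (2.05), which were not called. *Pax2* (0.918), *Vim* (0.912), *Gja1* (0.629) and *Stat3* (0.497) were below that median. The median was 1.14 over all genes called lower and 1.05 over all genes called higher. No m6A measurement enters these values.

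The other 6 tested genes were not called with all 8 samples. *Pax2*, the transcription factor of the optic nerve head and of astrocyte precursors, lies on chr19:44756045-44837871 (plus strand). For replicates 1 to 4, it stood at 8.46, 5.45, 5.68 and 4.40 CPM in the *Mettl3*-CKO group, compared with 8.61, 7.41, 5.09 and 5.26 CPM among controls. The groups overlapped over almost their whole range. The log2 fold change was -0.14 ± 0.23 (95% interval -0.63 to 0.35, adjusted p = 0.766, edgeR), and it was 0.020 without control replicate 1.

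Whether *Gfap* and *Pdgfra* moved apart from *Pax2* was examined by their ratio within each sample, with 3 ratios chosen after the values had been seen. The log2 ratio of *Gfap* to *Pax2*, a difference of log2 CPM, was 1.15 ± 0.40 (SD) in *Mettl3*-CKO and 2.24 ± 0.47 in control samples, and the groups did not overlap. The difference of -1.09 had p = 0.0286 in a two-sided exact permutation test (n = 4 per group), the smallest p this design allows, and 0.0571 after Benjamini-Hochberg adjustment over the 3 ratios. The log2 ratio of *Pdgfra* to *Pax2* differed by -0.69 and that of *Gfap* to *Vim* by -0.80, each with p = 0.0571 in the exact permutation test (n = 4 per group). The 3 differences without control replicate 1 were -0.89, -0.61 and -0.59.

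*Vim*, the filament gene shared by Müller glia, astrocytes and vascular cells, lies on chr2:13573927-13582826 (plus strand). *Vim* RNA stood at 251.2, 215.2, 278 and 226 CPM in the *Mettl3*-CKO samples (replicates 1 to 4), against 425, 314, 335 and 252 CPM in the controls in the same order. Control replicate 4 lay among the *Mettl3*-CKO samples, and the other controls lay above them. The log2 fold change was -0.45 ± 0.14 (95% interval -0.75 to -0.15), with an adjusted p of 0.0577 by edgeR and of 0.0177 by DESeq2. Leaving out control replicate 4 brought the adjusted p to 0.0230 (edgeR).

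*Stat3*, the transcription factor that gp130 cytokines activate, lies on chr11:100885098-100939540 (minus strand). *Stat3* RNA stood at 44.0, 42.6, 51.3 and 52.5 CPM in *Mettl3*-CKO and 48.0, 53.1, 59.7 and 64.7 CPM in control retinas (replicates 1 to 4 of each). Unlike the other genes, *Stat3* had its lowest control value in replicate 1, and the remaining 3 controls were above every *Mettl3*-CKO sample. The log2 fold change was -0.24 ± 0.11 (95% interval -0.49 to -0.0033, adjusted p = 0.197, edgeR). Over the remaining 7 samples without control replicate 1, it was -0.31 with an adjusted p of 0.0412.

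*S100b*, a calcium-binding protein gene of astrocytes, lies on chr10:76253853-76261159 (plus strand). For replicates 1 to 4, the values were 3.15, 2.38, 3.61 and 2.88 CPM in the *Mettl3*-CKO group, compared with 6.21, 4.10, 3.20 and 4.11 CPM among controls, with an overlap at control replicate 3. Its log2 fold change was -0.55 (95% interval -1.04 to -0.057, adjusted p = 0.154, edgeR). *Aldh1l1*, a folate enzyme gene used as a general astrocyte marker, lies on chr6:90486427-90600203 (plus strand). It was at 1.44, 1.80, 0.584 and 1.17 CPM in the *Mettl3*-CKO samples (replicates 1 to 4), against 3.85, 2.45, 1.42 and 1.45 CPM in the controls in the same order. These values rested on 11 to 72 counts per sample, the groups overlapped, and the log2 fold change was -0.88 with a wide 95% interval of -1.73 to -0.038 (adjusted p = 0.182, edgeR). The antisense gene *Gm15756* shares 11% of the exon bases of *Aldh1l1*.

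*Gja1*, which encodes the gap junction protein connexin 43 that couples astrocytes, lies on chr10:56377330-56402513 (plus strand). It was at 9.84, 7.48, 8.71 and 7.77 CPM in *Mettl3*-CKO and 14.8, 10.9, 7.08 and 9.61 CPM in control retinas (replicates 1 to 4 of each). The lowest of the 8 values was that of control replicate 3, and the log2 fold change was -0.33 (95% interval -0.76 to 0.10, adjusted p = 0.342, edgeR). *Edn2*, on chr4:120161206-120167360 (plus strand), had 1, 1, 0 and 0 counts in *Mettl3*-CKO replicates 1 to 4 and 0, 2, 1 and 0 counts in the controls. All samples were under the floor of 3 counts, so that a difference in this photoreceptor stress signal was not detectable at this depth.

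The profiles of the 9 tested genes over the 8 samples were compared by the root mean square distance between log2 CPM values scaled to mean 0 and SD 1 in each gene. *Gfap* and *Pdgfra* lay closest together, at 0.229, and *S100b* followed at 0.284 from *Pdgfra* and 0.341 from *Gfap*. *Pax2* was at 1.05 from *Pdgfra*. *Stat3* was farthest from the rest, at 1.115 to 1.71. All distances share the same 8 libraries and the high values of control replicate 1.

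Among 14316 tested genes with a mean log2 CPM of at least 1, the nearest to *Pdgfra* were *Mlc1* at 0.0984, *Sat1* at 0.156 and *Aldoc* at 0.165. *Mlc1* encodes a membrane protein of astrocyte endfeet. For replicates 1 to 4, *Mlc1* was at 6.25, 3.65, 6.96 and 6.60 CPM in the *Mettl3*-CKO group, compared with 27.0, 9.92, 8.76 and 11.2 CPM among controls. As for *Pdgfra*, control replicate 1 was highest and *Mettl3*-CKO replicate 2 lowest, and the log2 fold change of *Mlc1* was -1.28 ± 0.33 (adjusted p = 0.0284, edgeR). *Mlc1* was picked for its closeness to *Pdgfra* in these same samples, so this likeness and its lower level follow from the choice. They are not separate evidence. The nearest to *Gfap* were *Apeh* at 0.189, *Camkmt* at 0.200 and *Pdgfra* at 0.229. The nearest to *Pax2* were farther away: *Gm4149* at 0.334, *4930481A15Rik* at 0.370 and *Egr1* at 0.375.

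**Figure D3:**
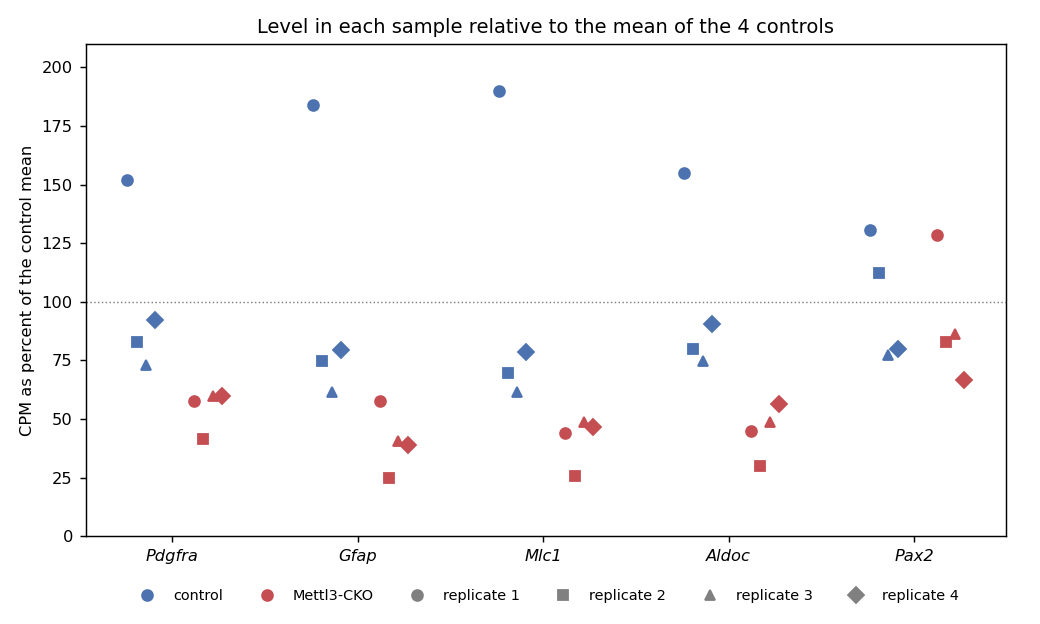
CPM of *Pdgfra*, *Gfap*, *Mlc1*, *Aldoc* and *Pax2* in each sample as a percent of the gene's mean over the 4 controls (y axis, from 0), with controls in blue, *Mettl3*-CKO samples in red and marker shapes for the replicate number. For the first 4 genes every red point is under every blue point and control replicate 1 is far above the other controls, while the points of *Pax2* overlap. *Mlc1* was picked because its profile over these samples was nearest to that of *Pdgfra*.

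Genes of the surrounding pathways were read from set lists, some of which hold the genes above. Their counts stand against these shares of all genes tested: 4.05% lower and 6.49% higher by edgeR, and 6.20% and 8.54% by DESeq2. At an unadjusted p under 0.05 the shares were 11.1% and 13.5%, and without control replicate 1 edgeR called 7.07% lower and 10.3% higher. Of 14 further astrocyte and macroglia genes, 12 were tested, 2 were called lower and 0 higher by edgeR (5 were lower and 1 higher at an unadjusted p under 0.05, and DESeq2 called 3 lower, adding *Cst3*), with a median log2 fold change of -0.32. *Aldoc*, a glycolytic enzyme gene of astrocytes and Müller glia, was at 15.7, 10.4, 17.0 and 19.7 CPM in the *Mettl3*-CKO samples (replicates 1 to 4), against 54.1, 27.9, 26.1 and 31.6 CPM in the controls in the same order. Its log2 fold change was -1.15 ± 0.23 (adjusted p = 0.00913, edgeR). *Atp1b2*, the gene of a sodium pump subunit, was at 321 to 426 CPM in *Mettl3*-CKO and 573 to 616 CPM in control samples. Its log2 fold change was -0.61 ± 0.10 (adjusted p = 0.00235, edgeR), and which retinal cells carried its RNA was not tested. The groups did not overlap for either gene, and control replicate 1 stood out for *Aldoc* but not for *Atp1b2*. Without control replicate 1, *Nfia*, a gliogenic transcription factor gene, was called as well, at -0.58 (adjusted p = 0.00186, edgeR). The astrocyte water channel gene *Aqp4* had at most 12 counts in a sample, and *Gjb6*, which encodes connexin 30, had 3 counts in control replicate 4 and 0 in the other samples.

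All 15 genes of intermediate filament proteins and their linkers were tested, and the 2 called, *Gfap* and *Nes*, were among the genes above. The median of the list was -0.076. DESeq2 called 3 lower, adding *Vim*. None were called higher by edgeR or DESeq2, and at an unadjusted p under 0.05, 4 were lower and 2 higher.

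Among the ligands of gp130, 3 of 8 genes were tested and 1 was called higher. *Cntf*, a cytokine that activates STAT3 in glia, had 35, 27, 32 and 26 counts in *Mettl3*-CKO replicates 1 to 4 and 10, 4, 8 and 6 counts in the controls. Its log2 fold change was 2.02 ± 0.32 (adjusted p = 0.00271, edgeR). However, 78.9% of its exon bases are shared with *Zfp91*, a gene on the same strand, so the assignment of these reads is uncertain. *Zfp91* itself had a log2 fold change of -0.061 (adjusted p = 0.713, edgeR). *Lif*, *Il6*, *Il11* and *Osm* did not pass the filter, with at most 12 counts per sample for *Lif*, 2 for *Il6* and 4 for *Osm*. None of the 9 gp130 receptor and kinase genes were called by edgeR or limma and 1 (*Il11ra1*) was called lower by DESeq2, while 3 (*Lifr*, *Osmr* and *Il11ra1*) were lower at an unadjusted p under 0.05, and their median was -0.13.

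In the list of STAT proteins and regulators of STAT3, all 9 genes were tested, 1 was called higher and 1 lower, with a median of -0.20. *Socs3*, a target of STAT3 that feeds back on gp130, was at 22.8, 16.6, 14.6 and 16.1 CPM in *Mettl3*-CKO and 10.8, 11.7, 10.7 and 14.0 CPM in control retinas (replicates 1 to 4 of each). The groups were separated by a narrow gap, and the log2 fold change was 0.57 ± 0.15 (adjusted p = 0.0321, edgeR). *Pias3*, which encodes an inhibitor of STAT3, was at 184 to 244 CPM in *Mettl3*-CKO and 266 to 282 CPM in control samples, a log2 fold change of -0.40 ± 0.10 (adjusted p = 0.0198, edgeR). Without control replicate 1, 3 genes of this list were called lower, *Pias3*, *Stat3* and *Stat5a*, and *Socs3* remained the only one called higher. Leaving out any of *Mettl3*-CKO replicates 1 and 2 or control replicates 2 and 3 took *Socs3* over the threshold, with adjusted p up to 0.112 (edgeR).

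**Figure D4:**
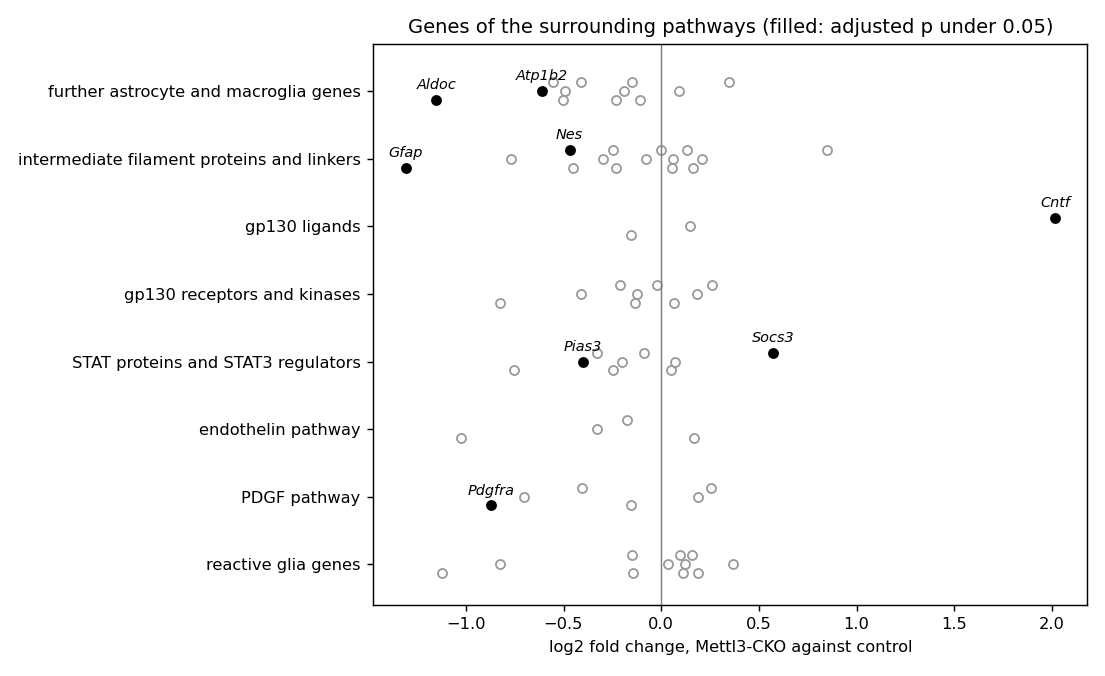
Log2 fold change of *Mettl3*-CKO against control retinas (x axis) for each tested gene of 8 pathway lists (rows), filled and named where the adjusted p was under 0.05. Most genes lie near 0, with *Cntf* at 2.02 and *Socs3* at 0.57 on the right and *Gfap*, *Aldoc*, *Pdgfra*, *Atp1b2*, *Nes* and *Pias3* on the left.

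In the PDGF list, *Pdgfra* was the 1 gene called of 6 tested by edgeR, while DESeq2 called 2, *Pdgfra* and *Pdgfrb*. *Pdgfa*, its ligand from ganglion cells, was at 8.31 ± 1.06 CPM in *Mettl3*-CKO and 7.28 ± 1.21 CPM in control samples (log2 fold change 0.19, adjusted p = 0.506, edgeR). *Pdgfc*, another ligand of this receptor, had a log2 fold change of 0.25 (adjusted p = 0.241, edgeR). *Pdgfrb*, the receptor of pericytes, was at 3.22 ± 0.928 and 5.21 ± 0.832 CPM, a log2 fold change of -0.70 with an adjusted p of 0.0553 (edgeR). *Pdgfb* and *Pdgfd*, its ligands, had log2 fold changes of -0.40 and -0.16 with adjusted p of 0.577 and 0.738 (edgeR).

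In the endothelin list, 4 of 7 genes were tested and 0 were called by edgeR, DESeq2 or limma, while 2, *Ednra* and *Ednrb*, were lower at an unadjusted p under 0.05. *Ednrb*, the receptor on glia, was at 14.8 ± 1.75 CPM in *Mettl3*-CKO and 18.5 ± 1.37 CPM in control samples, a log2 fold change of -0.33 with an adjusted p of 0.0942 (edgeR). *Ednra*, the receptor on mural cells, had a log2 fold change of -1.02 on levels of 0.476 ± 0.172 and 0.961 ± 0.472 CPM (adjusted p = 0.145, edgeR). The converting enzyme genes *Ece1* and *Ece2* were at -0.18 and 0.17 on the log2 scale, with adjusted p of 0.446 and 0.623 (edgeR).

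Of 15 genes known from reactive astrocytes and Müller glia in injury, 11 were tested, 0 were called in either direction by edgeR or limma and 1 (*S1pr3*) was called higher by DESeq2, while 1 (*S1pr3*) was higher and 2 (*Hspb1* and *Osmr*) were lower at an unadjusted p under 0.05. The median was 0.10. *Lcn2*, *Steap4*, *Cxcl10* and *Ccl2*, which mark strong reactive states, did not pass the filter and had at most 11, 2, 5 and 2 counts per sample. Without control replicate 1, *S1pr3*, a lipid receptor gene, was higher at 0.42 (adjusted p = 0.0153, edgeR) and *Cp*, the gene of ceruloplasmin, at 0.28 (adjusted p = 0.0160, edgeR). *Hspb1*, a small heat shock protein gene, was then lower at -1.27 (adjusted p = 0.0432, edgeR), with 15.3 CPM in control replicate 4, while control replicates 2 and 3, at 3.98 and 3.30 CPM, lay within the *Mettl3*-CKO range of 2.21 to 4.06 CPM.

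Marker lists of other cell types were read beside these genes, and their part in the values above was not tested. Of 10 endothelial genes, 9 were tested and 7 were called lower (*Pecam1*, *Cdh5*, *Flt1*, *Tek*, *Tie1*, *Cldn5* and *Egfl7*, and 6 without control replicate 1), with a median of -1.31 (-0.70 without it). Of all genes tested by edgeR, 4.05% were called lower with all samples and 7.07% without control replicate 1. DESeq2 called the same 7 genes of the endothelial list lower, and limma called 4. The summed level of that list, most of it *Kdr*, overlapped between groups (542 to 640 CPM in *Mettl3*-CKO and 563 to 659 CPM in control samples), and *Emcn* had 2 to 38 counts per sample. The other 9 genes summed to 18.2 to 24.3 CPM in *Mettl3*-CKO samples, 81.9 CPM in control replicate 1 and 35.2 to 39.3 CPM in the remaining controls, so the groups did not overlap and control replicate 1 was again highest. Of 6 pericyte genes, 5 were tested, 2 were called higher (*Cspg4* and *Notch3*) and 2 lower (*Rgs5* and *Abcc9*) by edgeR. DESeq2 called 2 higher and 3 lower, adding *Pdgfrb*. The sums, 47.5 to 68.5 and 36.7 to 78.2 CPM, mix opposite changes. *Notch3* was at 29.9 to 51.9 CPM in *Mettl3*-CKO and 10.6 to 16.8 CPM in control samples, and *Rgs5* at 4.52 to 8.87 and 11.1 to 53.1 CPM. The 6 genes of fibroblasts, another source of *Pdgfra*, include *Pdgfra* itself. Of these, 3 were tested and *Pdgfra* was the 1 called by edgeR, while DESeq2 called 2 lower, adding *Col1a2*, and 0 higher. The sums were 41.2 to 56.8 and 69.1 to 143 CPM. *Pdgfra* alone gave 36.8 to 53.0 and 64.7 to 134.7 CPM of them, so their separation restates that gene. Of the defining fibroblast genes, *Dcn* had at most 3 counts and *Lum* at most 2 counts per sample.

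Of 8 genes of the oligodendrocyte lineage, whose precursors also carry *Pdgfra*, 7 were tested, 3 were called higher (*Mog*, *Cnp* and *Cspg4*) and 0 lower. Of all genes tested by edgeR, 6.49% were called higher and 4.05% lower. The sums, mostly *Cnp* and *Mbp*, were 231.6 to 248.95 CPM in *Mettl3*-CKO and 192 to 235 CPM in control samples. With control replicate 1 left out, 3 were called higher and 1 lower (*Mbp*). The lineage genes *Sox10* and *Olig1* had only 5 to 19 and 6 to 10 counts per sample, and *Olig1* did not pass the filter. Müller glial genes, of which 8 of 10 were tested, gave 1 call in each direction (*Glul* higher, *Rlbp1* lower) and sums of 2022 to 2164 and 1888 to 2334 CPM. The highest of these sums was that of control replicate 1, and the other controls summed to 1888 to 2052 CPM. Without control replicate 1, 3 Müller glial genes were called higher (*Glul*, *Car14* and *Prdx6*) and 1 lower (*Rlbp1*). Of all genes then tested, 10.3% were called higher and 7.07% lower. Microglial genes gave 0 calls of 8 tested with all samples by edgeR and DESeq2 (*Cx3cr1* was higher at an unadjusted p under 0.05) and 4 higher without control replicate 1, which at a sum of 146 CPM was above the *Mettl3*-CKO range of 77.6 to 117 CPM, while the other controls reached at most 71.2 CPM. Dividing progenitor genes, whose cells also carry *Nes* and *Vim*, gave 4 higher calls (*Mki67*, *Mcm2*, *Mcm3* and *Mcm5*) and 0 lower of 9 tested, with sums of 1973 to 2648 and 1503 to 1870 CPM and the lowest sum in control replicate 1. Retinal ganglion cell genes gave 1 higher call (*Pou4f1*) of 6 tested, with sums of 462 to 487 and 385 to 595 CPM, again with control replicate 1 highest.

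Rod genes were called lower in 5 of 7 tested (*Nrl*, *Nr2e3*, *Gnat1*, *Pde6b* and *Sag*), with sums of 1273 to 2346 and 2493 to 3695 CPM and control replicate 1 highest. By edgeR, 4.05% of all genes tested were called lower. Pigment epithelium genes were called lower in 3 of 6 tested (*Tyr*, *Pmel* and *Ttr*), with sums of 56.7 to 78.0 and 85.6 to 116 CPM, and *Rpe65* had at most 14 counts per sample. Lens genes, called lower in 4 of 7 tested by edgeR (*Cryaa*, *Cryba1*, *Crybb1* and *Crybb3*) and in 0 by DESeq2, summed to 7.48 to 21.9 CPM in *Mettl3*-CKO samples and to 6.56 to 3301 CPM in controls, the highest being control replicate 4. Without control replicates 1 and 4, a setting chosen after the data had been seen, *Gfap* was at -0.75 (adjusted p = 0.0438), *Pdgfra* at -0.51 (adjusted p = 0.0271) and *Nes* at -0.47 (adjusted p = 0.0147, edgeR), and *Vim* was called as well at -0.42 (adjusted p = 0.0202), against 3.63% of the 18807 genes then tested that were called lower.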

How the data were processed

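RNA was extracted in TRIzol from the retinas of 4 control and 4 *Mettl3*-CKO samples, and libraries were made with the NEBNext Ultra kit. Per the methods, the authors aligned filtered reads to GRCm38 using Hisat2, and featureCounts gave the reads of each gene. The submitters' processing notes also name CASAVA. The annotation release and strand setting are not given in the sources used here. The values the authors deposited are raw read counts per gene, all 8 columns of which were used.

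The counts entered edgeR 4.0.16 under R 4.3.3 (filterByExpr by group, TMM, glmQLFit and glmQLFTest, Benjamini-Hochberg). Standard errors are the absolute log2 fold change divided by the square root of F. Log2 CPM used a prior count of 2, and FPKM used the deposited gene lengths. The biological coefficient of variation was 15.0%, and the closest pair of samples differed by a chi-square of 5.47 per gene, so none was counted as 1 sample. Floors cover counting error only. DESeq2 1.42.0, limma 3.58.1 (voom), other scalings, filters and thresholds, a replicate block and left-out samples were the alternatives.

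The genes and lists were chosen with earlier results of these data known. All 10 genes are named. Of each pathway list, the text names genes that were called, up to 4 per direction, all tested endothelin and PDGF ligands and receptors, and the 3 nearest profiles of *Gfap*, *Pdgfra* and *Pax2*. Called genes of the cell type lists are named without values, apart from *Pdgfra*, *Notch3* and *Rgs5*. Other list genes without a call, such as *Aqp4*, *Cst3*, *Lcn2* and *Kdr*, were named after their values were seen, as was *Mlc1* in full. Exon overlaps and GGACT counts came from GENCODE vM21, in which all 10 genes have the same coordinates. 1 list gene is not reported here.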

Additional observations from a re-analysis of the deposited data

Results flagged for a closer look

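Each of the 9 tested genes was examined in both groups for a sample far from the others, and 1 was found. *Pdgfra* in *Mettl3*-CKO replicate 2 was at 5.21 on the log2 CPM scale, while the remaining 3 samples of its group were between 5.69 and 5.73. The gap took 0.914 of the range of the group, above Dixon's 95% critical value for 4 samples. With 18 groups examined, about 0.9 such cases are expected by chance. The same sample was the lowest of all 8 for 5 of the 9 genes.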

How the results depend on the processing

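The number of these genes called lower ranged from 1 to 4 with each sample left out in turn: it was 1 without any of the *Mettl3*-CKO replicates, 2 without control replicate 3 and 4 without control replicate 1 or 4. It was 0 at an adjusted p under 0.01. Among all genes, 509 to 1882 were called higher and 185 to 1289 lower with each sample left out in turn, at an adjusted p under 0.05. At an adjusted p under 0.01, 439 were called higher and 147 lower, and at an adjusted p under 0.1, 1195 were called lower. The number of these genes called higher was 0 under every alternative, including DESeq2 and limma, and at an unadjusted p under 0.05. *Gfap* was called in 5 of 8 such fits (log2 fold change -1.52 to -0.83, lost without *Mettl3*-CKO replicate 2, 3 or 4), *Pdgfra* in 6 (-0.99 to -0.60, lost without *Mettl3*-CKO replicate 1 or 2) and *Nes* in 4 (-0.55 to -0.39, lost without *Mettl3*-CKO replicate 1, 3 or 4 or control replicate 3), with adjusted p up to 0.0673, 0.0646 and 0.0815. *Aldoc*, *Atp1b2* and *Cntf* were called in all 8, and *Socs3* and *Pias3* in 4. The log2 fold change of *Pax2* was -0.34 to 0.020 with a sample left out, and its sign reversed without control replicate 1 alone. The cause of these changes was not tested, beyond the fewer samples of each fit.

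Replicate numbers are shared between groups, but same-numbered samples deviated with correlations of -0.111 to 0.249 and share only a number. With the replicate number as a block, 4 of these genes were called lower, and 1198 genes were called higher and 660 lower among all genes. DESeq2 called 4 of these genes lower, and 1476 genes higher and 1072 lower among all genes. Depth limits *Edn2*, which had no more than 2 counts in a sample.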
